A study of Mus musculus with 12 samples.

Results

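The genes described here build the outer segment of the photoreceptor, the stack of light-sensing discs at the tip of every rod and cone, together with its axoneme and the matrix around it. The 10 members were taken by gene symbol from the expression matrix: Prph2, Rom1, Prom1, Cdhr1, Fscn2, Rp1, Rp1l1, Impg1, Impg2 and Reep6. All 10 were among the 40202 genes of the matrix and among the 25619 genes that passed the filter on low values.

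The study read the RNA of whole retina from C57BL/6J mice, in 4 groups of 3 libraries. Eyes of wild-type (WT) mice and of mice with laser-induced choroidal neovascularisation (CNV), a model in which laser burns let choroidal vessels grow towards the retina, were injected intravitreally with 1 µl of either vehicle (0.5X PBS) or 6 µg/µl cp-asiNRL. The agent cp-asiNRL is an siRNA made to enter cells and lower Nrl, the transcription factor that sets the rod fate, and the series title concerns turning rods into cone-like photoreceptors. The labels do not give age, time after injection, number of burns or animals per library, and since nothing says that libraries came from separate animals, a p-value here speaks only of the variation among libraries, part of which may be technical.

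New discs form at the base of the outer segment, as sheets of membrane that grow out of the cilium and then close. Old discs are shed at the tip, so the structure is rebuilt throughout life and depends on steady supply of its proteins. Prph2 and Rom1 encode paired tetraspanins that bend the disc rim, Prom1 and Cdhr1 act where new discs open, Rp1 and Rp1l1 coat the microtubules of the axoneme, and Impg1 and Impg2 encode proteoglycans of the interphotoreceptor matrix. Mutations in several of them cause inherited retinal degeneration in people.

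Libraries held 51298466 to 69394486 reads in genes, and levels are given in CPM, reads scaled to a common library total that was adjusted by trimmed means. Nrl, the targeted gene, was at 505 to 560 CPM in the WT vehicle libraries and at 397 to 467 CPM in the WT cp-asiNRL libraries. In CNV retina it was at 423 to 524 CPM with vehicle and at 324 and 263 CPM in cp-asiNRL replicates 1 and 3, but at 483 CPM in the library labelled CNV cp-asiNRL replicate 2, which lies inside the vehicle range. That library also stood apart over all tested genes: its chi-square per gene against the other 2 libraries of its group was 34.9 and 49.7, whereas the other pairs within groups had 4.06 to 15.9. Counts of calls in comparisons that use it are given with and without it. It was singled out by its values in these data, Nrl among them, and leaving it out keeps 2 libraries in its group. Fits without it are therefore post hoc, and their adjusted p-values are no independent support. For genes that follow Nrl over the libraries, a lower group mean is built into such fits. All 10 rod markers and all 9 cone markers had reads, and the summed rod marker level was 18898 to 21264 CPM in WT vehicle, 16214 to 19427 in WT cp-asiNRL, 16006 to 19467 in CNV vehicle and 11220 to 19773 in CNV cp-asiNRL. In bulk RNA, fewer photoreceptors and less RNA per photoreceptor cannot be told apart.

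In WT vehicle retina the 10 genes covered a wide range of levels. Divided by annotated exon length, Prph2 was highest at 898 CPM per kb ± 61.0 (SD, n = 3), followed by its partner Rom1 at 511 ± 35.0. Rp1 (209 ± 11.3) and Prom1 (187 ± 2.95) came next on the same scale, then Impg1 (120 ± 5.96), Rp1l1 (85.5 ± 3.15) and Cdhr1 (74.0 ± 2.30). Fscn2 (59.6 ± 5.68), Impg2 (52.9 ± 2.18) and Reep6 (40.7 ± 2.45) were lowest. The ranges of Fscn2 (53.5 to 64.8) and Impg2 (50.9 to 55.2) overlapped, so their order is not set beyond the spread, while all other neighbours in this order had ranges that did not overlap. The order rests on the length used, since the deposited values count reads over the whole gene with its introns. Per kb of genomic span Rom1 led with 392 CPM per kb ± 26.9 and Prph2 followed with 166 ± 11.2, whereas Impg1 was last with 3.29 ± 0.164.

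**Figure D1:**
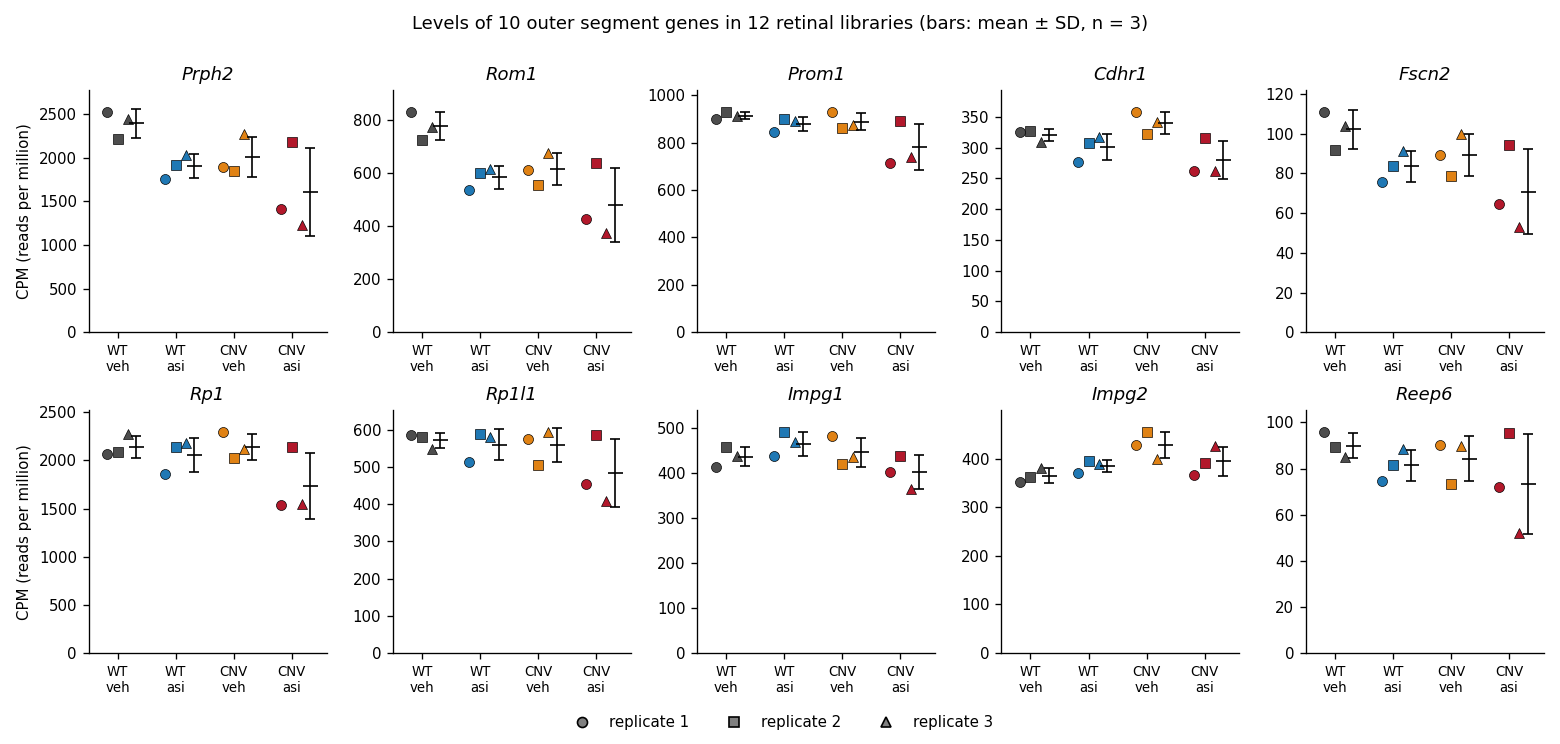
Level of each gene (vertical axis, CPM, starting at 0) in the 4 groups (WT veh, WT vehicle; WT asi, WT cp-asiNRL; CNV veh, CNV vehicle; CNV asi, CNV cp-asiNRL), with a point per library shaped by replicate and a bar for the mean ± SD of 3 libraries. In CNV cp-asiNRL, replicates 1 and 3 of Prph2 lie at 1412 and 1228 CPM and replicate 2 at 2177 CPM.

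The promoters of the rim pair and of the matrix pair are printed because these pairs lay at opposite ends of the differences after cp-asiNRL in WT retina. They come from RefSeq (GRCm38.p6), which gave a window of 300 bases, from 250 before to 50 after the start, for 7 of the 10 genes; Rp1, Rp1l1 and Reep6 were not matched. Capitals mark TAATC or its reverse complement GATTA, the core that the photoreceptor homeodomain factors CRX and OTX2 are known to bind. Prph2 is chr17:46910228-46910527 (plus strand), Rom1 chr19:8929307-8929606 (minus), Impg1 chr9:80465389-80465688 (minus) and Impg2 chr16:56204063-56204362 (plus).
Prph2: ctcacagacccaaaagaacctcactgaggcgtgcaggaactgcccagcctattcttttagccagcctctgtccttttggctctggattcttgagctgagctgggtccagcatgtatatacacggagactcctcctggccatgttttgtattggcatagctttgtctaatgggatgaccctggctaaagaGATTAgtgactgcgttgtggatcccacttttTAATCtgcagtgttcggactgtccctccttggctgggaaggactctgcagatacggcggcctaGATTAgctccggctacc
Rom1: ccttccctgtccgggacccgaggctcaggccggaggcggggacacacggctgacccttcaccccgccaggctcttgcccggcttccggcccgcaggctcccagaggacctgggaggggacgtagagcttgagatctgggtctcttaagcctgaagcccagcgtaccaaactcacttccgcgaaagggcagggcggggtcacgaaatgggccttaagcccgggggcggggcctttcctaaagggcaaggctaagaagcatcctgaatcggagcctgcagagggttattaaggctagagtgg
Impg1: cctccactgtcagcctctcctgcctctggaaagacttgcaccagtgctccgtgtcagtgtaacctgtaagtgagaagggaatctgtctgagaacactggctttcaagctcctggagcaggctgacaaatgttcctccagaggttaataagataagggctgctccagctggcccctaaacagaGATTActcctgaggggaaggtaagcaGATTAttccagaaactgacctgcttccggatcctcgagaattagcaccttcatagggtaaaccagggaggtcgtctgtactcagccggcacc
Impg2: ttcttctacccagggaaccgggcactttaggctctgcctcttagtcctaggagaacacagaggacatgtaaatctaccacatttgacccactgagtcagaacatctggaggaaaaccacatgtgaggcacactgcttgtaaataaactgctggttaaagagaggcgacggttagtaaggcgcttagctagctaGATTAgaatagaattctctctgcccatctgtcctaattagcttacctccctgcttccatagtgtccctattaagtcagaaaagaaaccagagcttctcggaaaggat
The core was found at 3 places in the Prph2 window, at 2 in Impg1, at 1 in Impg2 and at 0 in Rom1, on either strand. In windows not printed here it was found at 0 places in Cdhr1 and Fscn2. Prom1 had 0 in its window 1 and 1 in its window 2. Of 32851 RefSeq promoter windows of this length 22.0% held it at least once and 3.94% at least 2 times. The longer CRX-type letters TAATCC (or GGATTA), held by 7.06% of windows, and the NRL half-site TGCTGA (or TCAGCA), held by 19.5%, were in none of the windows of the 7 genes. The shorter core was searched after the longer letters had given no match, and TAATC lies within TAATCC.

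The disc rim genes showed the largest differences of the set after cp-asiNRL in WT retina. Prph2 (chromosome 17, 47221404 to 47235859, plus strand, GRCm39) had 2528, 2213 and 2440 CPM in the WT vehicle libraries and 1762, 1920 and 2037 CPM in the WT cp-asiNRL libraries. Rom1 (chromosome 19, 8904746 to 8906720, minus strand, GRCm39) had 829.5, 723 and 771 CPM with vehicle and 535, 599 and 615 CPM with cp-asiNRL. For both genes each cp-asiNRL library was below each vehicle library, as for 15.8% of all tested genes. The group means differed by -20.4% for Prph2 and -24.8% for Rom1. On the log2(CPM + 1) scale the difference was -0.33 (SE 0.16) for Prph2 and -0.41 (SE 0.14) for Rom1. Neither passed in the limma fit of all 12 libraries with Benjamini-Hochberg adjustment over 25619 genes (adjusted p = 0.345 and 0.198). In a fit of the 6 WT libraries alone both fell (adjusted p = 0.003 for Prph2 and 0.000324 for Rom1). The library labelled CNV cp-asiNRL replicate 2 is outside this comparison but adds to the shared spread, and when it was left out Rom1 fell (adjusted p = 0.0156) and Prph2 had adjusted p = 0.0673.

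In CNV retina the rim pair split by library. Prph2 had 1899, 1850 and 2269 CPM with vehicle and 1412, 2177 and 1228 CPM with cp-asiNRL. Rom1 had 610, 555 and 675 CPM with vehicle and 426, 636 and 372 CPM with cp-asiNRL. Replicates 1 and 3 were below every vehicle library for both genes and replicate 2 was within the vehicle range, so the groups overlapped. With all libraries the log2 difference was -0.36 (SE 0.16, adjusted p = 0.297) for Prph2 and -0.39 (SE 0.14, adjusted p = 0.25) for Rom1. When the library labelled CNV cp-asiNRL replicate 2 was left out both fell on the log2 scale. Prph2 fell by 0.60 (SE 0.11, adjusted p = 0.00187) and Rom1 by 0.62 (SE 0.09, adjusted p = 0.00065). That fit keeps only replicates 1 and 3 of the treated group, a choice made from these data. Without CNV cp-asiNRL replicate 3 the differences shrank to -0.19 and -0.23.

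The laser alone was set against WT vehicle with the same libraries as control that the first comparison used. The mean of Rom1 differed by -20.8% in CNV vehicle from WT vehicle, with no overlap between the groups (8.04% of all tested genes parted in this way). Its log2 difference was -0.34 (SE 0.14, adjusted p = 0.627). Prph2 differed by -16.2%, at -0.26 (SE 0.16, adjusted p = 0.700), with overlapping groups. Within a library the reads of Rom1 per read of Prph2, a ratio that no scaling enters, were 0.324 ± 0.00659 in WT vehicle, 0.306 ± 0.00545 in WT cp-asiNRL, 0.306 ± 0.0130 in CNV vehicle and 0.299 ± 0.00598 in CNV cp-asiNRL (SD, n = 3 each). Gene length can still enter this ratio, since Rom1 is the shorter gene. Rom1 lies wholly inside the span of Eml3, a microtubule-associated protein gene on the other strand, and, since the sources used here do not say whether counting used strand, reads of the pair may be shared. The rest of Eml3, outside Rom1, had 6.58 CPM per kb against 310 per kb over Rom1, if reads inside Rom1 were counted for both genes.

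Among the genes that open and shape new discs, Fscn2 followed the rim pair and Prom1 and Cdhr1 differed less. Fscn2 encodes an actin-bundling fascin of photoreceptors and lies at chromosome 11, 120250991 to 120258999 (plus strand, GRCm39). It had 111, 91.7 and 104 CPM in WT vehicle and 75.5, 83.6 and 91.3 CPM in WT cp-asiNRL. The groups did not overlap (15.8% of all tested genes parted in this way), although the nearest libraries were 91.7 and 91.3 CPM. The log2 difference was -0.29 (SE 0.15, adjusted p = 0.385), with adjusted p = 0.00778 in the fit of the 6 WT libraries. In CNV retina Fscn2 had 89.1, 78.8 and 99.7 CPM with vehicle and 64.4, 94.5 and 53.1 CPM with cp-asiNRL, again with replicates 1 and 3 below every vehicle library and replicate 2 among them. There the log2 difference was -0.37 (SE 0.15, adjusted p = 0.276) with all libraries and -0.59 (SE 0.10, adjusted p = 0.0017) without replicate 2.

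Cdhr1 (chromosome 14, 36799806 to 36820304, minus strand, GRCm39) encodes the cadherin that tethers new discs to the inner segment. It had 325, 327 and 309 CPM in WT vehicle and 277, 308 and 317 CPM in WT cp-asiNRL, with overlap and a log2 difference of -0.09 (SE 0.08, adjusted p = 0.589). In CNV retina it had 358, 323 and 341 CPM with vehicle and 263, 315 and 262 CPM with cp-asiNRL. Here all 3 cp-asiNRL libraries, replicate 2 included, were below all 3 vehicle libraries, which held for no other gene of the set in CNV retina. Of all tested genes 6.73% parted in this way, so 1 of the 10 is near that share. The log2 difference was -0.29 (SE 0.08, adjusted p = 0.205) with all libraries and -0.37 (SE 0.06, adjusted p = 0.00166) without replicate 2.

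Prom1 (chromosome 5, 44150963 to 44260850, minus strand, GRCm39) encodes prominin, a pentaspan protein of curved membrane. Its WT libraries lay between 844 and 928 CPM with overlap of the groups, and the log2 difference after cp-asiNRL was -0.06 (SE 0.08, adjusted p = 0.779). In CNV retina vehicle libraries had 861 to 930 CPM and cp-asiNRL libraries 712, 891 and 740 CPM (log2 difference -0.19, SE 0.08, adjusted p = 0.275; -0.29 and adjusted p = 0.00724 without replicate 2).

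The axoneme genes differed little between the WT groups and, in their log2 values, more in CNV retina. The difference between these effects was not called by limma on 12 libraries (adjusted p = 0.803 for Rp1 and 0.824 for Rp1l1). Rp1 (chromosome 1, 4185896 to 4479489, minus strand, GRCm39), which encodes a doublecortin protein of the axoneme, had 2067, 2083 and 2275 CPM in WT vehicle and 1856, 2134 and 2184 CPM in WT cp-asiNRL. The groups overlapped and the log2 difference was -0.06 (SE 0.12, adjusted p = 0.854). In CNV retina Rp1 had 2289, 2025 and 2115 CPM with vehicle and 1532, 2134 and 1548 CPM with cp-asiNRL. That difference was -0.32 (SE 0.12, adjusted p = 0.252) with all libraries, and -0.47 (SE 0.09, adjusted p = 0.00339) without replicate 2. Its relative Rp1l1 (chromosome 14, 64229880 to 64270955, plus strand, GRCm39) lay between 513 and 588 CPM in the WT libraries. In CNV cp-asiNRL it had 455, 585 and 409 CPM against 507 to 593 CPM with vehicle (log2 difference -0.22, SE 0.11, adjusted p = 0.321; -0.37 and adjusted p = 0.00594 without replicate 2). Prph2 reads per Rp1 read were 1.06 to 1.22 in WT vehicle and 0.900 to 0.949 in WT cp-asiNRL, with no overlap, but overlapped in CNV retina (0.829 to 1.07 with vehicle and 0.793 to 1.02 with cp-asiNRL), while Rp1l1 reads per Rp1 read overlapped (0.241 to 0.284 and 0.265 to 0.277). Gene length can enter the ratio of Prph2 to Rp1. In WT retina the median log2 change after cp-asiNRL was -0.10 for genes of 5 to 20 kb (Prph2) and 0.06 over 100 kb (Rp1). How many other gene pairs part in this way was not counted.

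The matrix genes went the other way in WT retina, by small amounts that did not pass. Both are long genes, and longer genes lay higher after cp-asiNRL in WT retina. Among genes with at least 5 CPM the median log2 change there was 0.01 at 20 to 100 kb (Impg2) and 0.06 over 100 kb (Impg1). Impg2 (chromosome 16, 56019447 to 56094119, plus strand, GRCm39) encodes a membrane-bound proteoglycan of the matrix and had 352, 363 and 382 CPM in WT vehicle and 371, 396 and 389 CPM in WT cp-asiNRL. Its log2 difference was 0.08 (SE 0.07, adjusted p = 0.626), and that of the secreted Impg1 (chromosome 9, 80215467 to 80347707, minus strand, GRCm39) was 0.09 (SE 0.08, adjusted p = 0.601). Rom1 reads per Impg2 read were 1.99 to 2.36 in WT vehicle and 1.44 to 1.58 in WT cp-asiNRL, and in CNV retina 1.22 to 1.69 with vehicle and 0.873 to 1.63 with cp-asiNRL. The WT groups did not overlap and the CNV groups did, and the pair was set together because it lay at opposite ends. Gene length can enter this ratio too, since genes under 5 kb (Rom1) had a median of -0.17 in WT retina. How many other gene pairs part in this way was not counted. Under the laser with vehicle Impg2 had 428, 454 and 400 CPM, each above every WT vehicle library, as for 7.54% of all tested genes. Its mean was 16.9% higher (log2 difference 0.22, SE 0.07, adjusted p = 0.571). After cp-asiNRL in CNV retina Impg2 had 366, 391 and 427 CPM, and replicate 3, the lowest library for Prph2 and Rom1, was the highest of its group. The difference was -0.12 (SE 0.07, adjusted p = 0.393) for Impg2 and -0.15 (SE 0.08, adjusted p = 0.338) for Impg1, and neither passed without replicate 2 (adjusted p = 0.304 and 0.0524). The end of Impg1 overlaps Myo6 on the other strand over 3545 bp.

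Reep6 (chromosome 10, 80165831 to 80172275, plus strand, GRCm39), which encodes an endoplasmic reticulum shaping protein needed by rods, differed little between the WT groups. In the WT libraries it lay between 74.7 and 95.6 CPM, with a log2 difference after cp-asiNRL of -0.14 (SE 0.15, adjusted p = 0.692). In CNV cp-asiNRL it had 72.2, 95.5 and 52.0 CPM against 73.2 to 90.1 CPM with vehicle. The difference was -0.24 (SE 0.15, adjusted p = 0.440) with all libraries and -0.45 (SE 0.11, adjusted p = 0.013) without replicate 2. The gene model Gm51809 on the other strand lies inside Reep6 and held 23.9% as many reads, so part of the Reep6 signal may be shared with it.

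**Figure D2:**
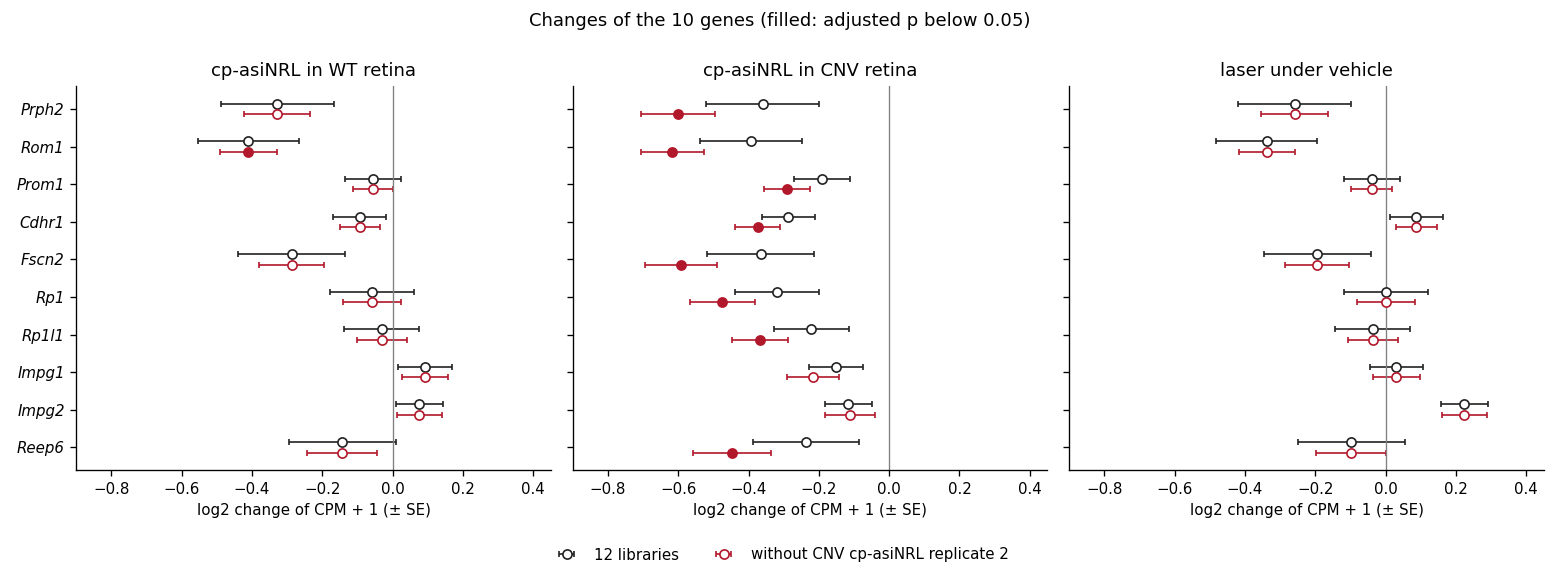
Log2 change of CPM + 1 (horizontal axis, ± SE) for the 10 genes in 3 comparisons, in the fit of 12 libraries (black) and when the library labelled CNV cp-asiNRL replicate 2 was left out (red); filled points have an adjusted p below 0.05. No black point is filled, whereas 8 red points are filled for cp-asiNRL in CNV retina.

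Counted together, 8 of the 10 genes were below 0 after cp-asiNRL in WT retina (median log2 change -0.08) and 10 of 10 in CNV retina (median -0.26), where 49.5% and 49.6% of all tested genes were below 0 and the median of all genes was 0.00 in each. In the limma fit of 12 libraries 0 of the 10 were called in WT retina (0.141% of all tested genes were called; at unadjusted p under 0.05, 1 of the 10 was lower, beside 9.79% of all genes, and 0 higher, beside 5.55%) and 0 in CNV retina (0.0468% of all; at unadjusted p under 0.05, 6 lower beside 8.41%). limma voom also called 0 in both, and limma voom with sample quality weights called 1 lower in WT retina (4.66% of all genes lower) and 7 lower in CNV retina (6.26%). With 6 WT libraries 3 were called lower against 6.68% of all genes, and the 6 CNV libraries alone gave no call among the 10. The share of all genes called is not given for the 6 CNV libraries alone. Nor is it given, here or below, for limma voom without weights, so those counts of 0 say little about the 10. When the library labelled CNV cp-asiNRL replicate 2 was left out the counts were 1 in WT retina (2.34%) and 8 in CNV retina (8.66%), all lower. The groups did not overlap, treated below vehicle, for Prph2, Rom1 and Fscn2 in WT retina (15.8% of all tested genes) and for Cdhr1 in CNV retina (6.73%). They did not part with treated above vehicle for any of the 10 (11% of all tested genes in WT and 6.32% in CNV retina). The difference between the cp-asiNRL effects in CNV and WT retina was called for 0 of the 10 and for 0% of all genes with limma (at unadjusted p under 0.05, 1 of the 10 was lower beside 3.04% of all, and limma voom called 0 with or without weights and limma on the 11 libraries other than CNV cp-asiNRL replicate 2 also 0, beside 0.0391% of all genes lower), with Rp1 at -0.26 (SE 0.17, adjusted p = 0.803; -0.42 without replicate 2) and Impg1 at -0.24 (SE 0.11, adjusted p = 0.788; -0.31 without it).

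Averaged over WT and CNV retina, 6 cp-asiNRL libraries against 6 vehicle libraries, all 10 genes were below 0 (49.4% of all tested genes). Rom1 was at -0.40 (SE 0.10, adjusted p = 0.0516), Cdhr1 at -0.19 (SE 0.05, adjusted p = 0.0652), Prph2 at -0.34 (SE 0.11, adjusted p = 0.0977) and Fscn2 at -0.33 (SE 0.11, adjusted p = 0.0979). Impg1 and Impg2 were at -0.03 and -0.02. limma called 0 of the 10 (2.36% of all genes; at unadjusted p under 0.05, 6 of the 10 were lower beside 13.7% of all), limma voom also 0, and limma voom with sample quality weights 8, all lower (13.6% of all genes lower). With a pseudocount of 0.25 in place of 1 Rom1 passed (adjusted p = 0.0459), and when the library labelled CNV cp-asiNRL replicate 2 was left out all but Impg1 and Impg2 fell, 8 of 10 against 12.4% of all genes lower.

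For the laser, 6 of the 10 were below 0 under vehicle (50.3% of all genes) and 9 of 10 under cp-asiNRL (47.7%). limma called 0 of the 10 in each (0% of all genes in each). At unadjusted p under 0.05, Rom1 was lower (3.69% of all genes) and Impg2 higher (3.98%) under vehicle, and 5 were lower (7.74%) and 0 higher (9.47%) under cp-asiNRL. limma voom called 0 in each, and with sample quality weights it called 0 under vehicle (0.0312% of all genes lower) and 7 lower under cp-asiNRL (7.7%). Under vehicle the groups did not overlap for Rom1, lower (8.04% of all genes), and Impg2, higher (7.54%), and under cp-asiNRL they overlapped for all 10 (8.37% of all genes were lower and 8.83% higher without overlap). Under cp-asiNRL 9 of the 10, all but Impg2, fell when the library labelled CNV cp-asiNRL replicate 2 was left out (7.96% of all genes lower), and under vehicle 0 did (0.0978%). The mean laser effect over both injections was -0.33 (SE 0.10, adjusted p = 0.147) for Rom1 and 0.13 (SE 0.05, adjusted p = 0.191) for Impg2 in the 12-library fit, where 0 of the 10 and 0.0039% of all genes were called (at unadjusted p under 0.05, 3 of the 10 were lower beside 7.88% of all and 1 higher beside 10.2%). limma voom called 0, and with sample quality weights 6 lower (5.9% of all genes lower), and 7 fell with limma on those 11 libraries (7.42%). With that library left out and sample quality weights together, an alternative added after seeing the data, 2 of the 10 fell after cp-asiNRL in WT retina (5.46% of all genes lower), 8 in CNV retina (8.81%) and 8 in the mean effect (14.6%), and 9 fell for the laser under cp-asiNRL (9.95%), 0 under vehicle (0.0782%), 8 in the mean laser effect (8.22%) and 0 in the difference (0.192%). These comparisons share libraries with those of cp-asiNRL.

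**Figure D3:**
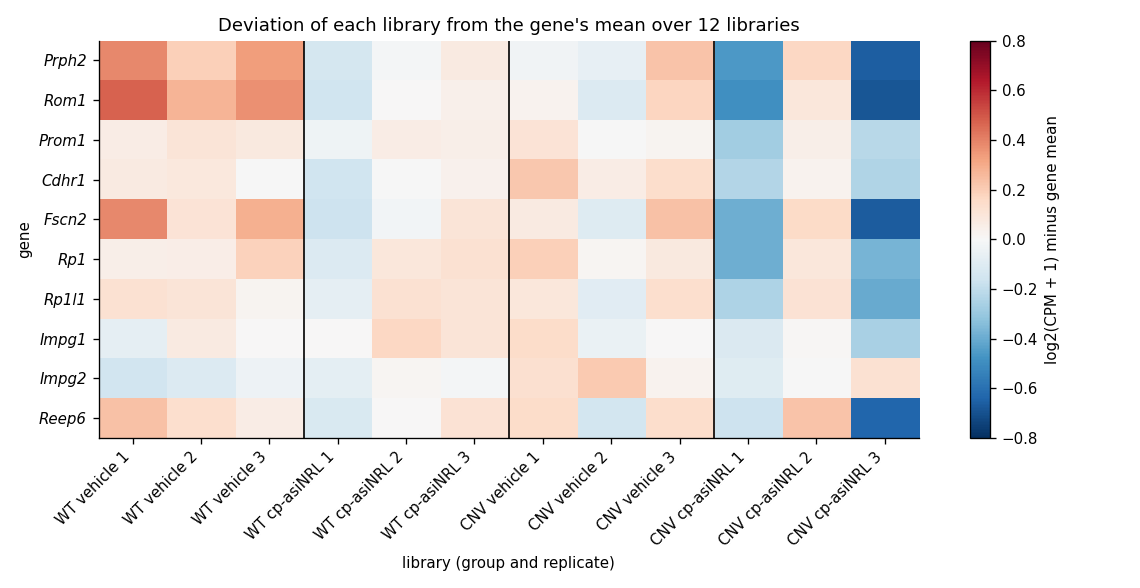
Deviation of log2(CPM + 1) from the gene's mean over 12 libraries (colour, red above and blue below) for each gene (rows) and library (columns, grouped by black lines). CNV cp-asiNRL replicates 1 and 3 are blue for 9 or more of the genes, with averages of -0.29 and -0.40, and replicate 2 is not, with 0.09.

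Averaged over the 10 genes, the deviation from each gene's own mean was 0.15, 0.10 and 0.13 on the log2 scale in WT vehicle and lowest in CNV cp-asiNRL replicates 3 and 1 (-0.40 and -0.29). WT cp-asiNRL replicate 1 (-0.10) and CNV vehicle replicate 2 (-0.03) were the lowest of their groups. The same 4 libraries had the highest summed level of 10 gliosis markers in their groups: 405 and 317 CPM in CNV cp-asiNRL replicates 3 and 1 against 161 in replicate 2, 203 CPM in WT cp-asiNRL replicate 1 against 146 and 137, and 307 CPM in CNV vehicle replicate 2 against 136 and 148. WT vehicle libraries had 98.7 to 102 CPM. Microglial markers, 10 of 10 with reads, ran from 34.6 to 37.6 CPM in WT vehicle, 36.6 to 62.8 in WT cp-asiNRL, 45.9 to 82.0 in CNV vehicle and 47.7 to 106 in CNV cp-asiNRL. Markers of pigment epithelium, 10 of 10 with reads, summed to 163 to 175 CPM in WT vehicle and 135 to 139 in WT cp-asiNRL, cone markers to 905 to 911 and 753 to 854, and ganglion cell markers, 8 of 8 with reads, to 349 to 367 and 313 to 329 CPM. In CNV retina these sums overlapped between vehicle and cp-asiNRL, at 150.1 to 189.5 and 144 to 183 CPM for pigment epithelium, 731 to 910 and 761 to 857 for cones, and 322 to 370 and 323 to 356 for ganglion cells. In the mean cp-asiNRL effect limma called 2 of the 10 pigment epithelium markers, Lrat and Ttr, and 2 of the 9 cone markers, Opn1sw and Gngt2, lower. In that effect 2.36% of all genes were called in either direction. Not all other markers of these lists were lower after cp-asiNRL. In WT retina Opn1mw was at 0.10 and Best1 at 0.05, and in CNV retina Cngb3 and Rlbp1 were each at 0.04 on the log2 scale. The part of injury, immune cells or tissue sampling in the levels of the outer segment genes was not tested.

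The genes whose profile over the 12 libraries was most like the average of the 10 were, by Pearson r among 13526 genes with at least 5 CPM, Pde6a (0.993), Kcnv2 (0.992), Gnb1 (0.989), Katnip (0.984), Kif3b (0.982), Slc24a1 (0.982), Pde6g (0.982) and the gene model 1700071M16Rik (0.981). Pde6a and Pde6g encode subunits of the rod phosphodiesterase and Slc24a1 the rod sodium-calcium-potassium exchanger. Taken singly, Prph2 (0.993) and Fscn2 (0.99) were most like Nrl itself, Rom1 most like Unc119 (0.987), Prom1 like Stx3 (0.981), Rp1l1 like Ppef2 (0.982), Cdhr1 like Tmem185a (0.963), Rp1 like Galnt4 (0.984) and Reep6 like the gene model Gm11337 (0.973), whereas Impg1 was most like Msi2 (0.968) and Impg2 most like Ahr (0.938). These values describe 12 libraries that share their groups and, for each gene, the library's state, and carry no test.

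**Figure D4:**
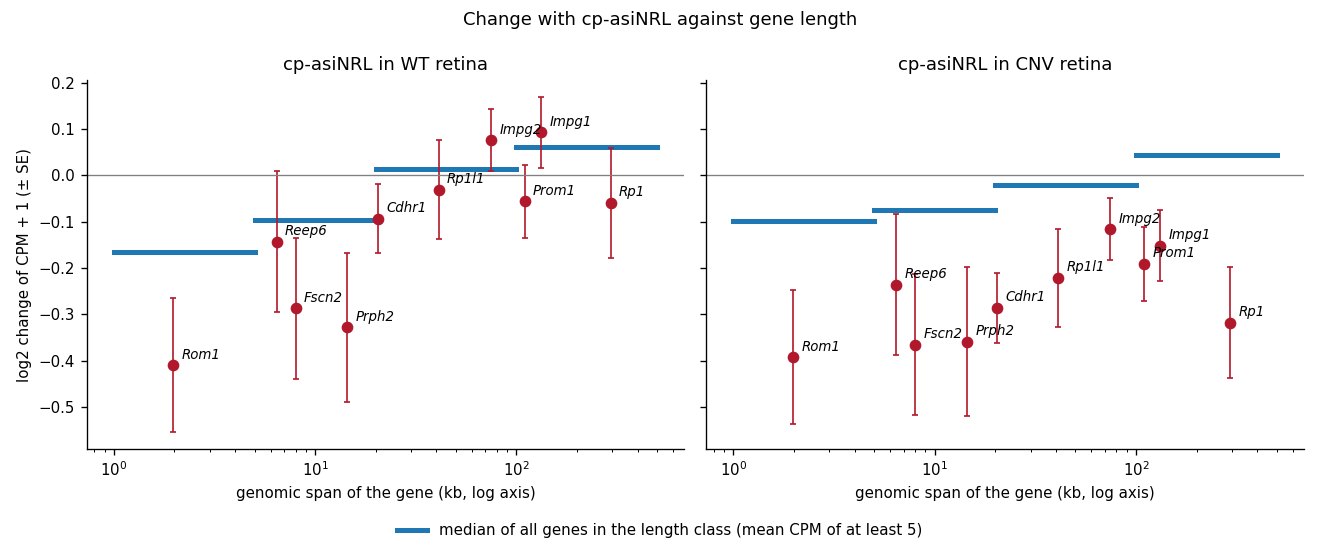
Log2 change of CPM + 1 (vertical axis, ± SE) against genomic span (horizontal axis, kb, log scale) for the 10 genes in both cp-asiNRL comparisons; blue lines are medians of all genes with at least 5 CPM in 4 length classes, with edges at 5, 20 and 100 kb and open outer classes. In WT retina the shortest gene, Rom1, is lowest at -0.41 and the class median there is -0.17.

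Gene length moved with these values. In WT retina genes under 5 kb had a median log2 change of -0.17 after cp-asiNRL (1112 genes), genes of 5 to 20 kb -0.10 (4196 genes), genes of 20 to 100 kb 0.01 (5923 genes) and genes over 100 kb 0.06 (2308 genes). Rom1 is in the first class, Prph2, Fscn2 and Reep6 in the second, and the 6 others are longer. In CNV retina the class medians were -0.10, -0.07, -0.02 and 0.04. With the trend with length removed from each library, the log2 change in WT retina was -0.35 for Rom1, -0.29 for Prph2 and -0.24 for Fscn2, and in CNV retina it was -0.36, -0.34 and -0.35, against -0.38 for Rp1. limma called 0 of the 10 in either comparison after this step (0.0156% and 0.0507% of all genes), nor in the mean cp-asiNRL effect (1.4%).

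Other genes of the outer segment were read from lists by role. Of 13 other genes of the outer segment membrane and its upkeep, 11 were below 0 after cp-asiNRL in WT retina and 13 in CNV retina, and in the mean cp-asiNRL effect the median was -0.18, beside -0.19 for the 10 genes above. In that effect limma and limma voom called 0 of the 13, beside 2.36% of all genes with limma. At unadjusted p under 0.05 with limma 6 of the 13 were lower, beside 13.7% of all genes. With sample quality weights 8 fell (13.6% of all genes lower). When the library labelled CNV cp-asiNRL replicate 2 was left out 8 fell (12.4% of all genes lower). Among those with the smallest p were Prcd, a small disc protein (-0.27, adjusted p = 0.108), the rod channel subunit Cnga1 (-0.19, adjusted p = 0.156) and Tulp1 (-0.18, adjusted p = 0.175). Of 26 measured genes of the cilium and its transport, 24 were below 0 (median -0.09), and Bbs4 and Bbs1, subunits of the BBSome that carries membrane proteins through cilia, fell by 0.20 and 0.22 on the log2 scale (adjusted p = 0.0331 and 0.0451), while Ttc8, of the same complex, was at -0.17 (adjusted p = 0.0588) and Unc119 at -0.25 (adjusted p = 0.0857). Both calls ended in several alternatives, with adjusted p of 0.131 for Bbs1 when CNV vehicle replicate 3 was left out and 0.0957 for Bbs4 when WT vehicle replicate 1 was. With sample quality weights 10 of the 26 fell (13.6% of all genes lower), and without the library that stood apart 12 did (12.4%).

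Of 9 other matrix genes, 7 were above 0 in the mean cp-asiNRL effect, and limma and limma voom called 0. At unadjusted p under 0.05 with limma 1 was lower, beside 13.7% of all genes, and 2 were higher, beside 10.5%. Rbp3, the retinoid-binding protein that photoreceptors secrete into the matrix, was at -0.16 (adjusted p = 0.18), and Cd44, the hyaluronan receptor of Müller glia that is also a gliosis marker, was at 0.67 (adjusted p = 0.0826), with Efemp1 at 0.298 (adjusted p = 0.107) and Acan at 0.17 (adjusted p = 0.223). Without the library that stood apart Cd44 (0.88, adjusted p = 0.000421), Efemp1 (0.42, adjusted p = 0.000131) and Timp3, a metalloproteinase inhibitor (0.23, adjusted p = 0.00418), rose and Rbp3 fell by 0.21 (adjusted p = 0.0149), and sample quality weights called the same 4. Of all genes 12.4% were called lower without that library and 13.6% with the weights. Of 12 measured relatives of the 10 genes, such as other Reep and fascin genes, 4 were below 0 (median 0.02), and limma and limma voom called 0 (0 lower and 1 higher at unadjusted p under 0.05 with limma). Reep3 was at 0.13 (adjusted p = 0.0707), Fscn3 at 0.064 (0.365), Reep1 at 0.052 (0.376) and Reep5 at -0.056 (0.434). Reep3 rose without the library that stood apart (0.14, adjusted p = 0.0154) and with sample quality weights (0.14, adjusted p = 0.0156). The share of all genes called higher in these fits is not given here. The calls of Reep3, Cd44, Efemp1 and Timp3 are therefore not set against it. Of 10 photoreceptor transcription regulators 9 were below 0 (median -0.19), 1 of them called by limma (2.36% of all genes) and by limma voom. With sample quality weights 7 were called (13.6% of all genes lower), and 6 without the library that stood apart (12.4%). Samd7, a repressor of non-rod genes in rods, fell by 0.38 (adjusted p = 0.00414, and at most 0.0232 in any alternative). In CNV retina alone Samd7 fell by 0.47 (adjusted p = 0.0337), a call that ended when any library other than CNV cp-asiNRL replicate 2 was left out (adjusted p of 0.0513 to 0.196), with no filter on low values (0.151) and in the 6 CNV libraries alone (0.513). In the mean effect Nrl was at -0.38 (adjusted p = 0.0716), Nr2e3 at -0.28 (adjusted p = 0.105) and Otx2 at -0.18 (adjusted p = 0.0612).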

How the data were processed

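Libraries of mouse retina were prepared with the TruSeq Stranded mRNA kit, per the labels' protocols. The submitters' processing notes name HISAT2 2.1.0, featureCounts 1.6.0 and the mm10 build. Chromosome accessions in the deposited file belong to GRCm39 instead, and its coordinates are used for genes. The deposited signal is headed FPKM, yet each value times the deposited gene length was whole within 1e-06 for all 482424 values, so it is reads divided by gene length. That length is the genomic span for all 40200 genes with 1 locus. Introns and overlapping genes therefore add reads. The columns of WT samples carry the prefix N-I, matched to the titles by treatment and number.

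Reads were recovered and scaled to CPM with trimmed means (trims of 30% and 5%). Genes with the CPM of at least 10 reads at the median library in 3 libraries and 15 reads in all were kept. log2(CPM + 1) was fitted with limma 3.58.1 (trend) in R 4.3.3 as 4 group means over 12 libraries, and a gene was called at adjusted p below 0.05. Because the deposited values are not counts, limma on the log scale was the test, and limma voom on the recovered reads an alternative. The procedure was tested on simulated data in which all libraries had the same spread. No library stood apart in them, so that test does not cover a group such as CNV cp-asiNRL. Exon lengths are from GENCODE M21. Alternatives changed scaling, filter, pseudocount, weights, length trend, replicate block and libraries. No pairing of libraries of different groups by replicate number was assumed, and p-values are adjusted over all genes tested. The genes, lists and tests were chosen with earlier results of these data known.

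All 10 members, Nrl, up to 4 genes with the smallest p and every called gene of a role list in the 12-library fit of the mean cp-asiNRL effect, and the most similar profiles were named, and called markers of cones and pigment epithelium and list genes called in other fits were added after their values were seen. A gene that this rule names is not reported here.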

Additional observations from a re-analysis of the deposited data

How the results depend on the processing

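The counts of the 10 genes called, 0 in each comparison of the 12-library limma fit, remained 0 with scaling by library total, median-of-ratios scaling, no filter, limma voom, the length trend removed and the replicate block. Apart from the length trend, the share of all genes called is not given for these settings, so 0 of the 10 says little there. Same-number libraries had correlations of deviations from -0.52 to 0.31, over 0.1 in 4 of 18 pairs, which cannot settle whether they are paired. With the replicate block the median log2 change was -0.08 in WT and -0.26 in CNV retina, as without it. A pseudocount of 0.25 gave 1 call in the mean cp-asiNRL effect. Fitting only the 6 WT libraries gave 3, while the like fits of only the groups compared gave no call for cp-asiNRL in CNV retina or for the laser. For the fits without a call the share of all genes is likewise not given. Sample quality weights gave 1 (cp-asiNRL, WT), 7 (cp-asiNRL, CNV), 7 (laser under cp-asiNRL), 8 (mean cp-asiNRL) and 6 (mean laser). Leaving out 1 library gave 0 to 1, 0 to 8, 0 to 9, 0 to 8 and 0 to 7 calls in the same order of comparisons, and 0 for the laser under vehicle and for the difference of cp-asiNRL effects; each count above 0 came when the library labelled CNV cp-asiNRL replicate 2 was left out. The median log2 change then ran from -0.12 to -0.03, -0.41 to -0.18, -0.39 to -0.12, -0.25 to -0.13 and -0.21 to -0.08, from -0.07 to 0.02 for the laser under vehicle and from -0.29 to -0.09 for the difference. Leaving out that library together with sample quality weights, chosen after seeing the data, gave 2, 8, 9, 8 and 8 calls, and medians of -0.42 (cp-asiNRL, CNV), -0.41 (laser under cp-asiNRL) and -0.31 (difference). The cause was not tested.

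Signs of log2 changes that were not called reversed in some settings. Rp1 under laser with vehicle became -0.0034 with scaling by library total, -0.00068 with median-of-ratios scaling, -0.0056 with sample quality weights, -0.052 with the length trend removed and -0.0043 with the added alternative. Scaling by library total also gave 0.0072 for Impg2 (mean cp-asiNRL), 0.012 for Cdhr1 (mean laser) and 0.019 for Prph2 (difference). Sample quality weights gave -0.0019 for Impg2 (laser under cp-asiNRL) and -0.15 for Rom1 (difference), removing the length trend -0.0090 for Impg1 (laser under vehicle) and -0.018 for Rom1 (difference), and the added alternative 9.0e-05 for Impg2 (mean cp-asiNRL) and -0.25 for Rom1 (difference). Leaving out 1 library moved Rp1 from -0.10 to 0.013 and Rp1l1 from -0.067 to 0.031 (cp-asiNRL, WT). Under laser with vehicle it moved Rp1 from -0.048 to 0.044, Rp1l1 from -0.082 to 0.032, Impg1 from -0.026 to 0.074 and Reep6 from -0.15 to 0.00021. Under laser with cp-asiNRL Impg2 ran from -0.027 to 0.085 and Reep6 from -0.40 to 0.029. In the mean effects Impg1 ran from -0.062 to 0.0052 and Impg2 from -0.049 to 0.0061 (cp-asiNRL) and Cdhr1 from -0.053 to 0.013 (laser). In the difference Prph2 ran from -0.27 to 0.14, Rom1 from -0.21 to 0.18, Fscn2 from -0.31 to 0.10 and Reep6 from -0.30 to 0.13.

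Each of the 10 genes was at 52.0 CPM or more in every library. The number of libraries, introns and overlapping genes limit what the levels show.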
